A study of Mus musculus with 14 samples.

Results

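The sorted tumor macrophages were the CD11b+Gr1- cells, called tumor-associated macrophages (TAM) in the labels, that were isolated by flow cytometry from Lewis lung carcinoma (LLC) tumors. They made up 8 of the 14 libraries of the study, 4 from wild-type (WT) mice and 4 from p110g-/- mice, and were taken as every TAM library of either genotype, with all genes of the TAM table. LLC is a transplantable mouse lung carcinoma line. It had been grown in the flank for 14 days, and both genotypes are labelled C57BL/6. The other 6 libraries were whole LLC tumors, 3 WT and 3 p110g-/-, of the same day. The p110g-/- mice lack p110 gamma in every cell, so tumor stroma and T cells carried the deletion as well as the macrophages, while the LLC cells were the same line in both hosts. The labels give no age or sex, and do not say whether a library came from 1 mouse or from pooled mice. The p-values of fits paired by library number reflect the spread of the differences within numbers. Those of unpaired fits reflect library-to-library spread. Either spread may be technical.

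PI3K gamma is a class IB phosphoinositide 3-kinase of leukocytes. Its catalytic subunit p110 gamma, encoded by Pik3cg, works with a regulatory subunit downstream of G protein-coupled receptors, such as chemokine receptors, and of Ras. In macrophages this kinase feeds AKT and mTOR signalling. Type I interferon is a separate autocrine circuit of the same cells. Sensors of nucleic acids induce interferon beta, its receptor activates a transcription factor complex that includes STAT2 and IRF9, and the complex binds the interferon-stimulated response element (ISRE) of antiviral genes, among them Irf7, which amplifies the loop.

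The values were whole-number normalized counts, summing to 33248294 to 38153438 per library, from an estimated 26.8 to 40.7 M reads in the WT and 19.7 to 40.2 M in the p110g-/- libraries. All 15 macrophage markers, among them Csf1r, Adgre1 and C1qa, held at least 1265 normalized counts in the 8 libraries, and their summed level was 921260 to 1170289 in WT and 1231572 to 1305612 in p110g-/-. Lyz2 alone separated these sums, since the other 14 markers summed to 413353 to 527436 and 395768 to 538083. The 15 T cell markers summed to 191 to 415 in WT and 191 to 499 in p110g-/-, with Trat1 at 0 to 2. The 11 neutrophil markers, most of whose sum was Mmp9 except in WT library 1, summed to 9538 to 17065 and 13137 to 20321, with the granule gene Retnlg at 0 to 4. None of the 8 tested was called (limma, 3 at an unadjusted p under 0.05, all higher). Their median log2 fold change was 0.39, with 7 above 0 and 1 below. Library 1 of each genotype stood apart from numbers 2 to 4 for fibroblast and several monocyte genes, and mitochondrial genes took 2.51% to 3.21% of the values in libraries 1 and 2 and 7.7% to 14.4% in libraries 3 and 4 of both genotypes. Same-numbered libraries deviated together from their group means, so the genotypes were compared within numbers, and a pair below means a WT and a p110g-/- library of the same number. In bulk RNA, fewer cells of a type and less RNA per cell cannot be told apart.

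Pik3cg, the targeted gene, held 3745, 4477, 3070 and 2748 normalized counts in WT libraries 1 to 4 and 2203, 2211, 1210 and 1401 in p110g-/-. Every p110g-/- library lay below every WT library, and the ratio of means was 0.5 (log2 fold change −1.02, SE 0.09, adjusted p = 0.00557, and 0.299 without pairing). Which exons were targeted is not given here, so where the remaining reads lie was not analysed. Among the 10 class I PI3K subunit genes tested, Pik3cg was the gene called, and none of the 29 genes of AKT, mTOR and the phosphoinositide phosphatases was called (limma, log2 fold changes −0.24 to 0.37, 4 at an unadjusted p under 0.05).

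The comparison of genotypes called genes in both directions. Of 12475 genes tested, 126 rose (1.01%) and 186 fell (1.49%), 312 in all (2.5%), and each of the 312 moved the same way in the 4 pairs. At an unadjusted p under 0.05 there were 2327 genes, and with sample quality weights 370 rose and 382 fell. Of the 312 genes, the fall was at least 2-fold in 64 and the rise in 53. Without the pairing 14 genes passed (0.112%), all of them among the 312: Lyz1, Klrb1b, Sbsn, Raet1e, H60b, Gfra2, Hddc3, Cacna1a and Zfp781 were higher and Ifi44, Apol9b, Hdac9, Bst2 and Epb4.1l1 lower. Every other gene said below to have risen or fallen passed with the pairing only. WT and p110g-/- libraries were fully separated in 537 genes (4.3%), which included 83 of the genes that rose and 70 of those that fell. With the libraries of pair 1 left out 298 genes were higher and 311 lower, and the counts were 28 and 50 without pair 2, 24 and 67 without pair 3, and 33 and 66 without pair 4. Called again without each library number in turn, 53 genes passed every time, 15 higher and 38 lower, and 25 of the 38 belonged to the list of type I interferon response genes described next.

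**Figure D1:**
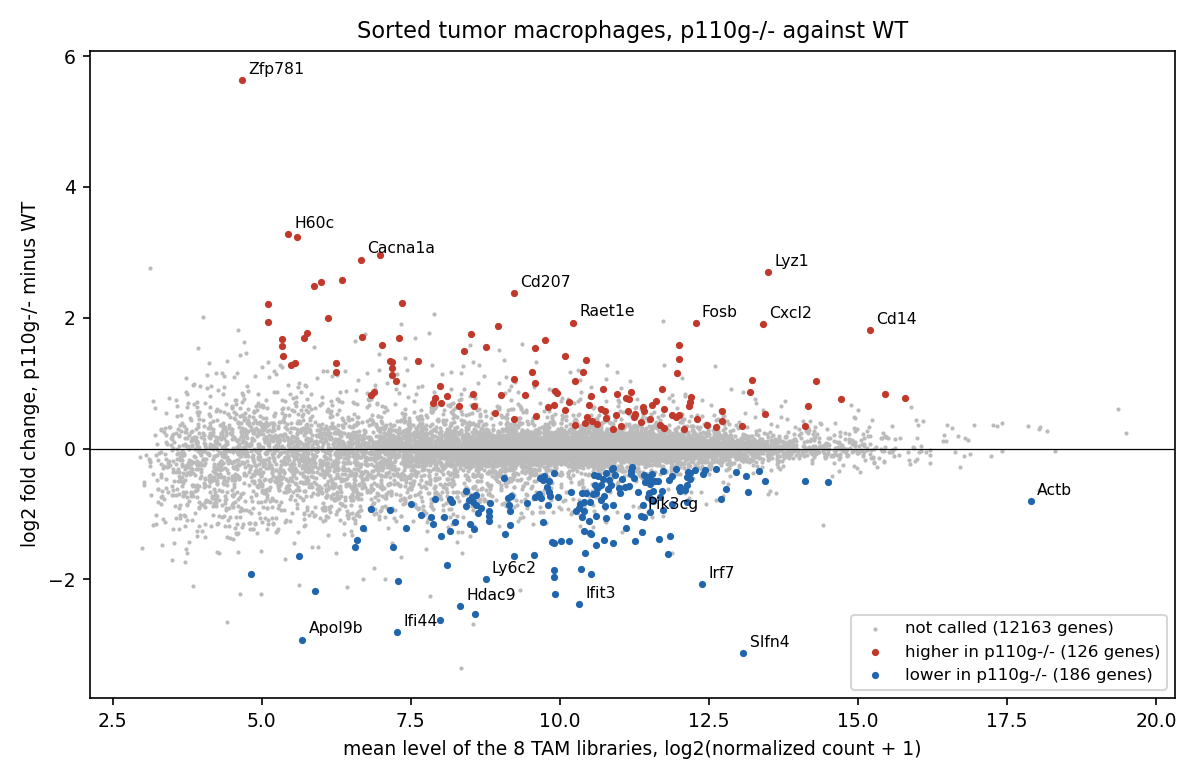
Each point is a gene tested in the TAM libraries, with its mean level on the x axis (log2 of the normalized count + 1) and its log2 fold change, p110g-/- minus WT, on the y axis. Red points are the 126 genes that rose and blue points the 186 that fell; Zfp781 was listed at 0 in every WT library, so its height depends on the pseudocount.

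The type I interferon response held more called genes than any other list. All 47 tested members of the list were lower in p110g-/- TAM, in each of the 4 pairs, and 45 fell, with a median log2 fold change of −1.21 against −0.01 over all genes tested. The pair medians were −0.96, −1.35, −1.06 and −1.23. With 1 pair left out 26 to 45 members were called, and 3 without the pairing. The summed level of the list was 99080 to 218772 in WT and 50396 to 102798 in p110g-/-. The list was drawn up with earlier results of these data known, so its count describes these libraries and is not independent evidence of a direction. Apol9a was among the members not called (log2 fold change −2.23, adjusted p = 0.12).

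Irf7, Stat2 and Irf9 were transcription factor genes of the list that fell. Irf7, the interferon regulatory factor that amplifies type I interferon production, was at 11759, 8994, 6201 and 7325 normalized counts in WT and at 3605, 1828, 1642 and 1403 in p110g-/-. The groups did not overlap (log2 fold change −2.08, SE 0.12, adjusted p = 0.00105, and 0.0683 without pairing). Stat2 fell by 0.75 and Irf9 by 0.34 on the log2 scale, and for both the highest p110g-/- library, number 1, lay above the lowest WT library. Both genes encode parts of the interferon-activated complex.

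Zbp1, Ddx58 and Ifih1 of the list, and Mb21d1 and Trex1 outside it, act on nucleic acids in the cytosol; all 5 were picked once their values were known. Zbp1, a sensor of Z-form nucleic acids, went from 2352 ± 950 to 1159 ± 611 normalized counts (mean ± SD, 4 libraries each). Ddx58, which encodes the RNA sensor RIG-I, went from 2088 ± 508 to 1208 ± 288, and Ifih1, which encodes the RNA sensor MDA5, from 1858 ± 529 to 1151 ± 339. The DNA sensor gene Mb21d1 (cGAS) fell by 0.45 on the log2 scale. Trex1, which encodes an exonuclease of cytosolic DNA and not a sensor, fell by 0.59.

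Antiviral effector genes of the list were chosen in part after their values were seen. Ifi44, an interferon-induced protein gene, held 245, 272, 232 and 327 normalized counts in WT and 57, 32, 36 and 29 in p110g-/-, with no overlap (log2 fold change −2.81, SE 0.24, adjusted p = 0.00403, and 0.00773 without pairing). Isg15, a ubiquitin-like modifier, held 2860, 1804, 1635 and 1928 in WT against 994, 559, 615 and 574 in p110g-/- TAM (log2 fold change −1.59, SE 0.08, adjusted p = 9.6e-04, and 0.0683 without pairing). Library 1 was the highest of each genotype for Isg15, and the groups did not overlap. Usp18, the protease that removes ISG15 from its targets, fell by 1.62 on the log2 scale, and all 5 genes of ISG15 conjugation fell. This family, like the families below, was chosen after its values were seen.

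Rsad2, which encodes viperin, held 3713, 1999, 1282 and 1247 normalized counts in WT and 951, 335, 416 and 535 in p110g-/-. The IFIT genes encode proteins that bind viral RNA; 5 of 6 fell, with a family median of −2.15, and Ifit1 held 2216, 1586, 984 and 1146 in WT against 824, 345, 285 and 281. In the oligoadenylate synthetase family, only some members of which activate RNase L, 7 of 8 fell, Oasl1 by 1.96 and Oas3 by 1.48 on the log2 scale. How reads shared by near-identical members (Ifit3 and Ifit3b, the Oas1 genes, Apol9a and Apol9b) were assigned is not stated in the sources, so the split between such members is uncertain.

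Bst2, which encodes tetherin, an anchor of budding virus particles, was the even case. It held 4601, 4338, 4070 and 4808 normalized counts in WT and 1933, 2658, 2568 and 2186 in p110g-/- TAM (log2 fold change −0.94, SE 0.11, adjusted p = 0.0109, and 0.0302 without pairing). Slfn4, a myeloid schlafen gene, was the uneven case. It held 44909 in WT library 1 and 5733, 6123 and 5976 in the other WT libraries, against 3986, 340, 1210 and 977 in p110g-/- TAM (log2 fold change −3.13, SE 0.27, adjusted p = 0.00427, and 0.433 without pairing). Apol9b, an apolipoprotein L gene, held 93, 70, 103 and 92 in WT against 13, 15, 7 and 10 in p110g-/- TAM.

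The promoters of several of these genes carry the letters of the ISRE next to the transcription start. The stretches below are upstream of the start, from RefSeq on GRCm38.p6, in the gene's 5′ to 3′ direction, with GAAANNGAAA on either strand in capitals (on the other strand it reads TTTCNNTTTC), and overlapping matches run together. They are shown because these 6 genes fell and their windows hold a match.
Apol9b, chr15:77729012-77729071, plus strand: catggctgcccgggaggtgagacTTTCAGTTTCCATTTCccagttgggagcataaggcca
Ifit1, chr19:34640779-34640838, plus strand: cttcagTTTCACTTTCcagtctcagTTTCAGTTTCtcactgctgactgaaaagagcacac
Rsad2, chr12:26456538-26456597, minus strand: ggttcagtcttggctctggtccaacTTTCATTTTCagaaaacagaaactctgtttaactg
Isg15, chr4:156200850-156200909, minus strand: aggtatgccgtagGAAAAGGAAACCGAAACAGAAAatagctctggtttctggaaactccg
Oas3, chr5:120777700-120777759, minus strand: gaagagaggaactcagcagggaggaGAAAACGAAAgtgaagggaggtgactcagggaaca
Bst2, chr8:71537562-71537621, minus strand: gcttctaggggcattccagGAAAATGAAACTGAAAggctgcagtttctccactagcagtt
Of all 27025 genes with a window of 250 bases before to 50 after the start, 3.99% held this motif on either strand. Among the list members called lower, 35 had a window and 15 held a match upstream of the start. The 3.99% counts matches anywhere in the window and the 15 only those wholly upstream, so they are unlike measures. Windows were at hand for 36 of the 47 list members (76.6%), fewer than the 80% set for a check over a gene set, so a comparison of motif shares between gene sets is void. A match is a run of letters and says nothing about binding in these cells.

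**Figure D2:**
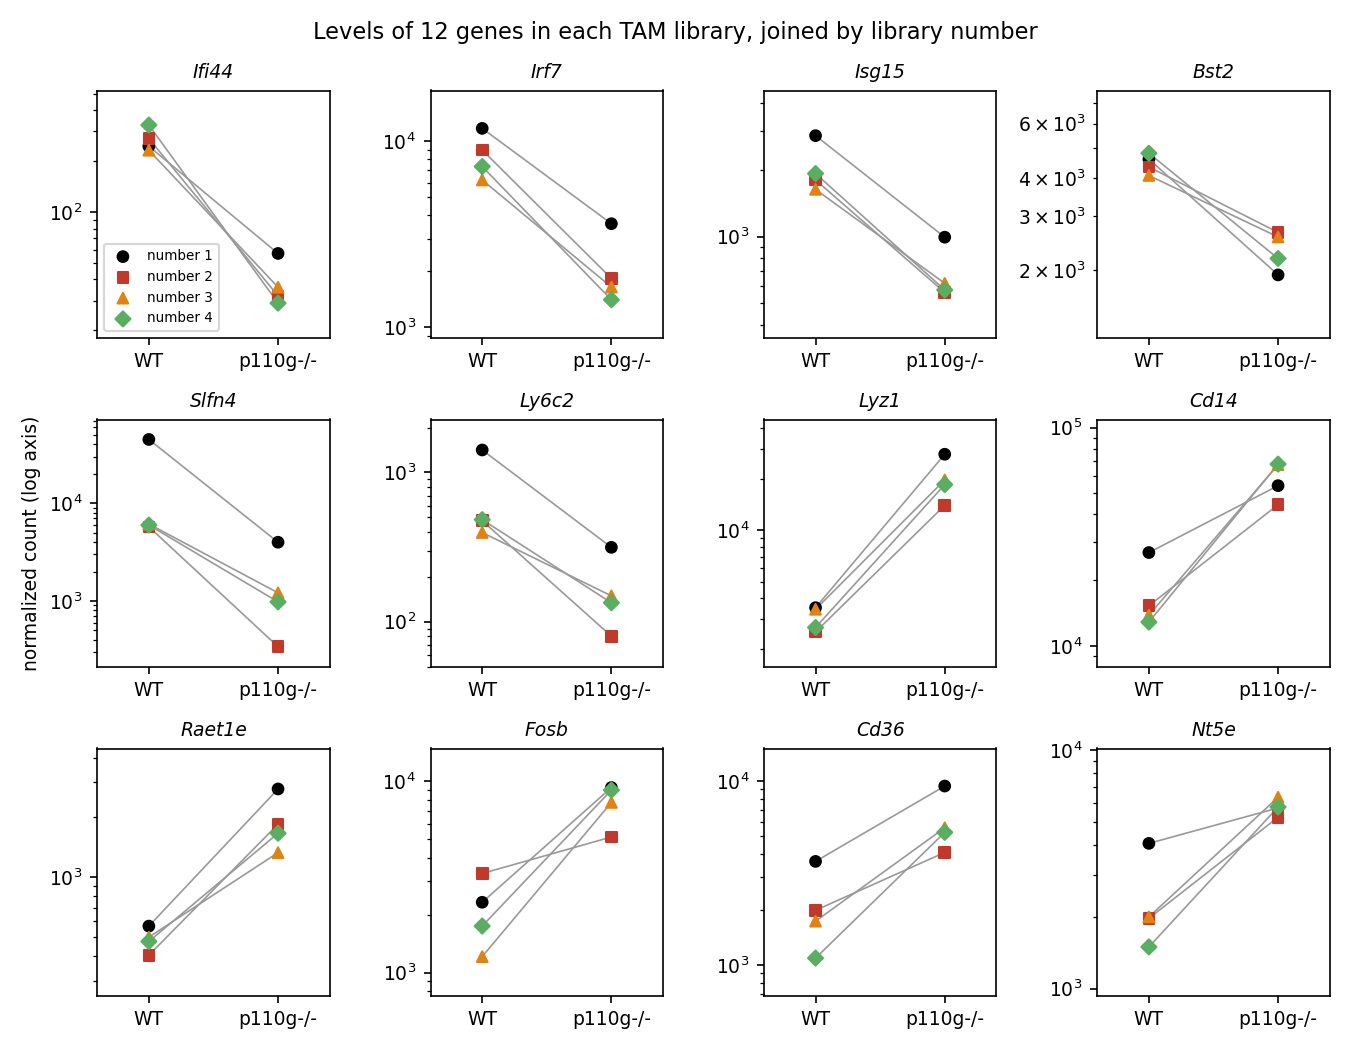
Normalized counts (log axis) of 12 genes in the WT and p110g-/- TAM libraries, with grey lines joining libraries of the same number. The first 6 genes were lower and the last 6 higher in p110g-/- in every pair; Slfn4 and Ly6c2 show library 1 far above numbers 2 to 4 in WT.

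Genes induced mainly by interferon-gamma formed a separate list, whose difference from the type I list was not tested. This separate list held 17 GTPase genes, among them the guanylate-binding and immunity-related families, which act on intracellular pathogens. Of the 17, Ifi47 and Gvin1 fell (log2 fold changes −0.61 and −0.42), and the list median was −0.25. At an unadjusted p under 0.05 there were 8, of which 1 was higher, and 4, 0, 0 and 0 members were called without pairs 1, 2, 3 and 4. Gbp2 had a log2 fold change of 0.49 (adjusted p = 0.075). The chemokine gene Cxcl9, which attracts T cells through CXCR3, rose, from 2810, 2397, 1630 and 2973 normalized counts in WT to 7753, 6381, 3806 and 4340 in p110g-/- without overlap (log2 fold change 1.16, SE 0.15, adjusted p = 0.0149, and 0.291 without pairing), while Cxcl10, a ligand of the same receptor, was at 3212 ± 950 and 2600 ± 1180 (adjusted p = 0.106).

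In MHC class I presentation 5 of 20 genes fell and none rose, with a median of −0.22. Without pairs 1, 2, 3 and 4 in turn 5, 1, 2 and 1 were called, and none without the pairing (14 of the 20 had an unadjusted p under 0.05 with it). H2-Q6, a non-classical class I gene, held 3477, 2271, 1972 and 2121 normalized counts in WT and 1655, 1430, 1085 and 1159 in p110g-/- without overlap (log2 fold change −0.87, SE 0.08, adjusted p = 0.00443, and 0.301 without pairing). H2-Q7 fell by 0.64 and H2-Q4 by 0.33, Nlrc5, the transactivator of class I genes, by 0.57, and Tap1, of the peptide transporter, by 0.39 on the log2 scale. The H2-Q genes are near-identical, so their separate values are uncertain. None of the 15 MHC class II presentation genes was called (limma, median 0.17, 1 at an unadjusted p under 0.05).

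The same lists were measured in whole tumors. There 286 of 12717 genes rose (2.25%) and 267 fell (2.1%) in p110g-/-. The type I list had a median log2 fold change of 0.35 in whole tumor, with 5 members higher and 1 lower, the interferon-gamma GTPases 2.06 with 16 of 17 higher, and the class I list 0.48 with 16 of 20 higher. The difference of the genotype effects, TAM minus whole tumor, was tested in 12396 genes over the 14 libraries. It was above 0 in 104 (0.839%) and below 0 in 300 (2.42%), or in 60 and 487 with the libraries rescaled to equal totals, and in 5 and 13 without the pairing. The 300 included 45 of the 47 type I genes and 16 genes of each of the other lists. Of the 185 genes that fell in TAM and were tested in both, 124 had a difference below 0, 11 also fell in whole tumor and 18 rose there. Of the 125 that rose in TAM, 34 had a difference above 0 and 1 below, 15 also rose in whole tumor and 2 fell. Both sets were picked by their TAM effect, which is part of the difference, so the sign of the difference was favoured in advance. Whole tumors also hold carcinoma, stromal and lymphoid cells, whose part in the difference was not tested. In the same whole tumors 4 of 11 T cell markers rose in p110g-/- (list median 1.27 on the log2 scale), as did 2 of 8 NK and cytotoxic cell markers (list median 1.27), and none of either fell.

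**Figure D3:**
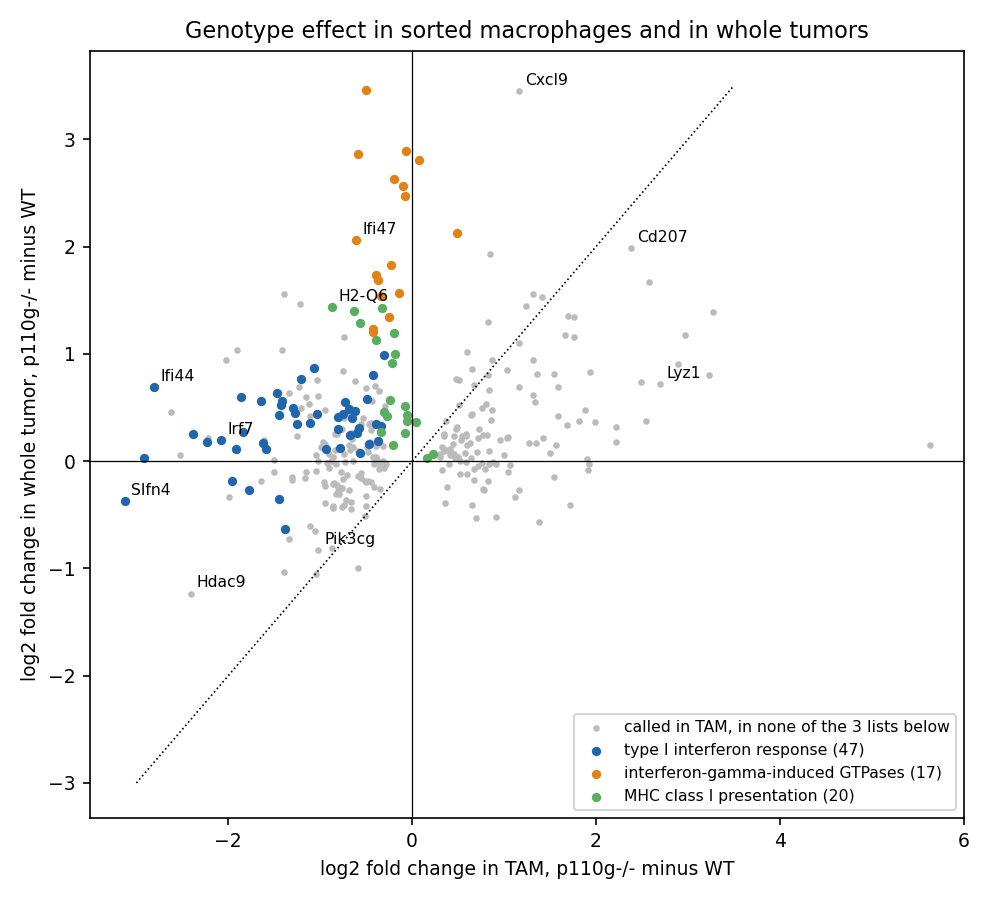
Log2 fold change, p110g-/- minus WT, in TAM (x axis) and in whole tumor (y axis) for the genes called in TAM (grey) and for all tested members of 3 lists (blue, orange and green). The dotted line marks equal effects; the 47 type I interferon genes lie to the left of 0 in TAM, and the interferon-gamma GTPases between −0.61 and 0.49 in TAM with a median of 2.06 in whole tumor.

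Lysozymes, antimicrobial proteins and complement changed in 3 of 18 genes, and Lyz1 had the smallest adjusted p of all genes tested. Lyz1, a lysozyme that degrades bacterial cell walls, held 3516, 2533, 3439 and 2688 normalized counts in WT and 28021, 14041, 19795 and 18586 in p110g-/-, with the lowest p110g-/- library above the highest WT library (log2 fold change 2.69, SE 0.09, adjusted p = 4.08e-04, and 0.00496 without pairing). Its near-identical neighbour Lyz2, the macrophage lysozyme, had values of 471157 to 662600 in WT and 712193 to 905943 in p110g-/- and was not called (log2 fold change 0.60, adjusted p = 0.164), and the split of reads between the genes is uncertain. C3, the central complement component, rose by 0.60, and Cfb, factor B of the alternative pathway, fell by 1.41 on the log2 scale.

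Ligands of NKG2D, the activating receptor of NK and T cells, rose in 4 of 5 tested genes. H60c, among these 4, reached the minimum level for testing through its p110g-/- libraries only, so its entry favoured a rise. With the minimum raised to 50 normalized counts, 3 ligands were called and the list median was 1.16, against 1.93. At that minimum H60b also entered through its p110g-/- libraries only. Raet1e held 565, 403, 497 and 473 normalized counts in WT and 2778, 1845, 1326 and 1661 in p110g-/- TAM (log2 fold change 1.93, SE 0.15, adjusted p = 0.0031, and 0.0215 without pairing). H60b held 26, 18, 36 and 24 in WT against 399, 120, 175 and 207 in p110g-/- TAM, and H60c 7, 5, 7 and 4 against 175, 33, 40 and 68, with library 1 the highest in p110g-/-. For none of these did the genotypes overlap. Raet1d rose by 0.38, and Ulbp1 had a log2 fold change of 0.22 (adjusted p = 0.578). Klrb1b, an inhibitory C-type lectin receptor of the NKR-P1 family, held 629, 586, 543 and 594 in WT against 1832, 1314, 1555 and 1616 in p110g-/- TAM (log2 fold change 1.42, SE 0.09, adjusted p = 0.00143, and 0.00496 without pairing). The 14 NK and cytotoxic cell markers summed to 729 to 1122 in WT and 449 to 1320 in p110g-/-, with none of the 8 tested called (limma, 2 at an unadjusted p under 0.05, both lower). With 1 pair left out, 1 to 4 of the NKG2D ligands were called, and 2 without the pairing.

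Immediate-early genes, which are transcribed within minutes of a stimulus, rose in part: 7 of 34 were called higher, none lower, and the median was 0.42. Fosb, a Fos family member that forms AP-1 with Jun proteins, held 2334, 3301, 1213 and 1753 normalized counts in WT and 9287, 5120, 7762 and 9008 in p110g-/- TAM (log2 fold change 1.92, SE 0.31, adjusted p = 0.0298, and 0.101 without pairing). Fos, of the same family, held 39469, 40651, 22636 and 27344 in WT against 74091, 59282, 43233 and 52609 in p110g-/- TAM. The groups did not overlap for either. Egr1 rose by 0.79, Dusp1, a MAP kinase phosphatase, by 1.04, Zfp36, which destabilizes cytokine mRNAs, by 0.76, Ier2 by 0.36 and Rgs1, a brake on G protein signalling, by 1.04. The pair medians of the list, 0.11, 0.20, 0.66 and 0.94, were highest in pairs 3 and 4, whose libraries also had the higher mitochondrial share and, in p110g-/- library 4, 14.4% against 9.59% in its WT partner. The part of these shares in the result was not tested. The number of members called was 13, 4, 0 and 1 without pairs 1, 2, 3 and 4.

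Inflammatory mediators rose in a few genes. Cxcl2, a neutrophil attractant, held 12963, 3105, 2472 and 3023 normalized counts in WT and 24433, 10302, 15143 and 15625 in p110g-/- TAM (log2 fold change 1.91, SE 0.26, adjusted p = 0.0172, and 0.417 without pairing), and WT library 1 overlapped the p110g-/- range. Cxcl1, of the same family, rose by 1.55 and Ptgs2, the inducible prostaglandin synthase, by 0.80, and with Cxcl2 they were the 3 of 36 NF-kB targets called. Of 31 chemokine and receptor genes 5 rose, also with Cxcl9, Cxcl14 (log2 fold change 0.87) and Ccrl2, a chemerin-binding receptor (1.00). Without pairs 1, 2, 3 and 4 in turn, 7, 1, 0 and 1 NF-kB targets and 17, 0, 1 and 1 chemokine genes were called, and none of either list without the pairing. Cd14, the co-receptor of bacterial lipopolysaccharide, held 26774, 15278, 13844 and 12870 in WT against 54199, 44362, 67571 and 68025 in p110g-/- TAM without overlap (log2 fold change 1.81, SE 0.23, adjusted p = 0.0135, and 0.0621 without pairing). It was the 1 gene called of 26 for Toll-like receptors and their signalling. The formyl peptide receptors Fpr1 and Fpr2, which guide phagocytes to bacteria, rose by 1.66 and 1.17.

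Of 37 genes of alternative activation and immune suppression 4 were called. Nt5e, which encodes the adenosine-producing ectoenzyme CD73, held 4060, 1971, 1998 and 1496 normalized counts in WT and 5715, 5227, 6336 and 5766 in p110g-/- TAM (log2 fold change 1.38, SE 0.22, adjusted p = 0.0288, and 0.184 without pairing). The groups did not overlap, nor did they for Pdcd1lg2, the PD-L2 gene, at 100, 46, 58 and 55 in WT against 139, 214, 224 and 188 in p110g-/- TAM. With Ptgs2 these were the 3 called higher, and Lgals9, galectin 9, fell by 0.55. Cd36, a scavenger receptor for oxidized lipids, held 3659, 1984, 1732 and 1091 in WT against 9392, 4093, 5570 and 5261 in p110g-/- TAM (log2 fold change 1.59, SE 0.18, adjusted p = 0.0101, and 0.307 without pairing), Spp1, osteopontin, rose by 0.77, and Nr1h3, the LXR alpha gene, fell by 0.62. Cd38, an NAD-consuming ectoenzyme, rose by 1.06 and Anpep, aminopeptidase N, by 0.86, and both were chosen after their values were seen.

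**Figure D4:**
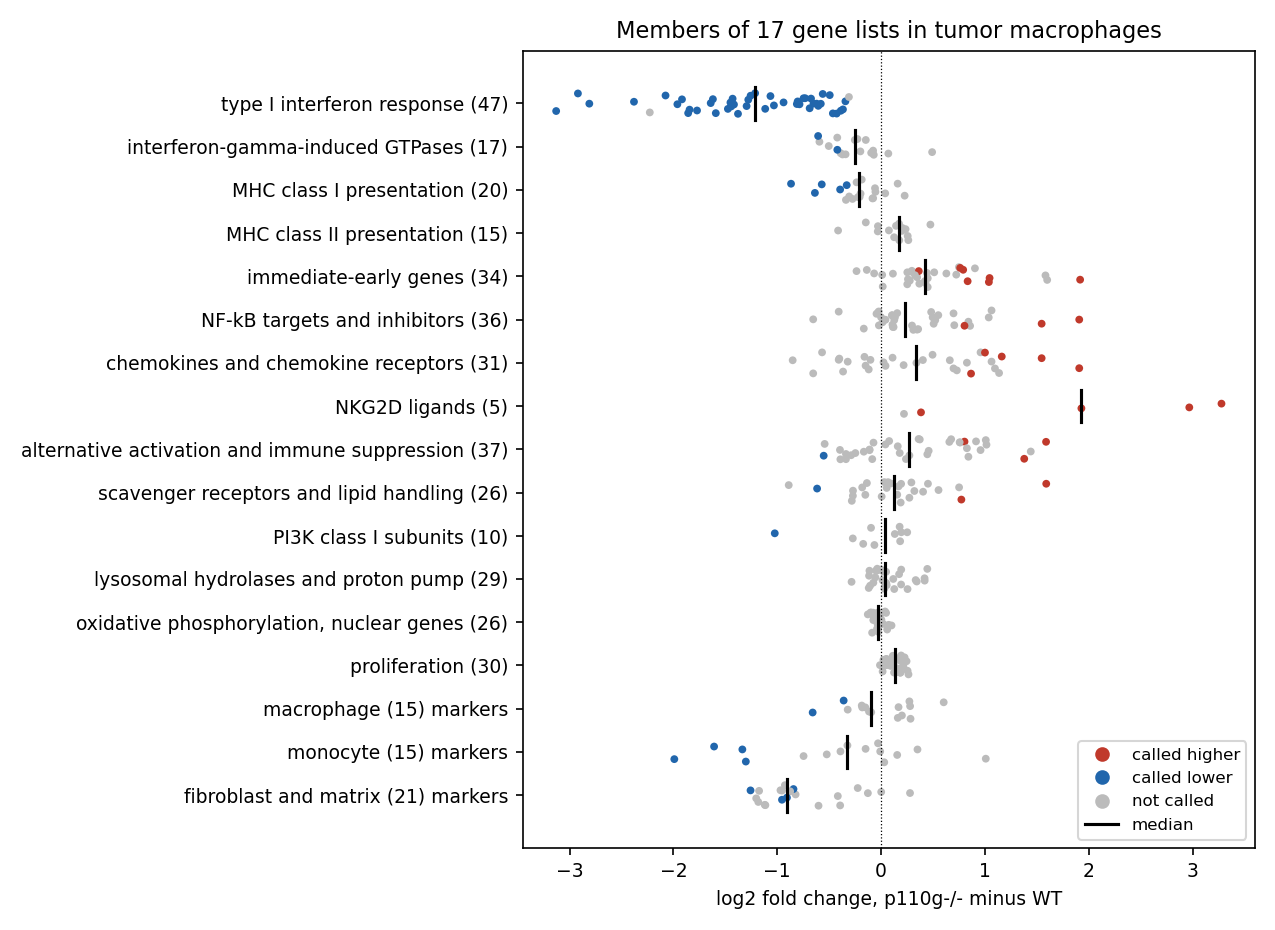
Log2 fold change, p110g-/- minus WT, of each tested member of 17 lists, with the number of members in brackets, red for genes called higher, blue for lower and grey for the rest; black bars are medians. The type I interferon list lies wholly below 0 (median −1.21), while immediate-early genes have a median of 0.42 and the metabolic lists lie near 0.

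Of 15 macrophage markers 2 were called, with a list median of −0.10: Fcgr1, the high-affinity IgG receptor, fell by 0.66 and the transcription factor gene Maf by 0.36 on the log2 scale. Of 15 monocyte markers 4 fell, and 6, 1, 3 and 4 were called without pairs 1, 2, 3 and 4. The list median was −0.325, with 4 members above 0 and 11 below, from −1.99 to 1.01. Ly6c2, which marks classical monocytes, held 1415, 475, 396 and 483 normalized counts in WT and 315, 80, 149 and 134 in p110g-/- TAM (log2 fold change −1.99, SE 0.19, adjusted p = 0.00604, and 0.36 without pairing). Ms4a4c fell by 1.61, Ly6a by 1.34 and Plac8 by 1.30, and the paralog Ly6c1 could share reads with Ly6c2. Library 1 was the highest of its genotype for all 4. Hdac9, a class IIa histone deacetylase gene, held 677, 649, 448 and 390 in WT against 135, 72, 87 and 110 in p110g-/- TAM (log2 fold change −2.41, SE 0.21, adjusted p = 0.00443, and 0.0215 without pairing), and Hdac7 fell by 0.42.

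Fibroblast and matrix genes, which mark other cells, were present at levels that varied widely between library numbers. None of the 9 endothelial or 6 carcinoma markers tested was called (limma, 5 and 4 at an unadjusted p under 0.05). The 21 fibroblast and matrix markers summed to 3617, 37909, 71194 and 77458 normalized counts in WT libraries 1 to 4 and to 1150, 13006, 60612 and 44505 in p110g-/-, lower in p110g-/- in each pair. Fbn1, Fstl1, Bgn and Sparc, all matrix genes, fell, with a list median of −0.91. Without pairs 1, 2, 3 and 4 in turn 5, 0, 3 and 0 of the list were called, and none without the pairing. In the unpaired fit, leaving out p110g-/- library 1 turned Fbn1 (log2 fold change 0.20), Bgn (0.45), Sparc (0.25) and the list median (0.25) above 0. Sparc held 100, 966, 2508 and 2879 in WT against 51, 470, 1802 and 1538 in p110g-/- TAM, so that the spread between numbers was larger than the difference between genotypes, and the unpaired fit gave adjusted p = 0.999. Basement membrane genes, Lamb1 and Col4a1 among them, fell in 5 of 15. The part of these levels in the other differences was not tested.

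Some of the genes with large rises were low in WT. Zfp781, H60c, Xkr6 and Ret reached the minimum of 10 normalized counts in 4 libraries only with p110g-/- libraries counted, so their entry into the test favoured a rise. Zfp781, a zinc finger gene, was listed at 0 in every WT TAM library and at 49, 46, 46 and 54 normalized counts in p110g-/- (adjusted p = 0.00181, and 0.00496 without pairing). In whole tumor it was at 47 ± 40.7 in WT and 56 ± 51.1 in p110g-/- (mean ± SD), so WT tumors were not without it. Cacna1a, a voltage-gated calcium channel gene, held 29, 19, 27 and 18 in WT against 196, 140, 157 and 219 in p110g-/- TAM (log2 fold change 2.89, SE 0.22, adjusted p = 0.0031, and 0.00773 without pairing). Hddc3, which encodes a nucleotide hydrolase, held 19, 27, 21 and 20 against 129, 208, 124 and 95. Gfra2, a receptor of the GDNF family, held 69, 53, 57 and 46 against 265, 318, 325 and 174, and Ret, the kinase that signals for this family, 3, 11, 16 and 6 against 65, 146, 67 and 66; Ret was chosen after its values were seen. For none of these genes did the TAM groups overlap. Cd207, langerin, an endocytic lectin, rose by 2.38, and Adgrg5, an adhesion receptor, by 1.76. Kit rose by 1.03, and with the other dendritic cell markers not called it was 1 of 15. Other genes of the 15 largest rises were Xkr6, Klk9, Slco4a1 and Hr, with log2 fold changes of 2.54, 1.99, 1.88 and 1.71. Actb, beta actin, often used as a reference gene, fell from 312826 ± 52528 to 177937 ± 9923.

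Genes next to Pik3cg on the chromosome were described by their order in a RefSeq table of another build, with no coordinates. None of the 12 nearest tested genes, 6 on each side, was called. The adjacent genes Prkar2b and Ccdc71l had log2 fold changes of 0.39 (adjusted p = 0.0881) and −0.54 (adjusted p = 0.0801). Among the 40 nearest, 4 fell (10.0%, against 1.49% of all genes tested), a difference that was not tested. They were the interferon genes Rsad2 and Cmpk2, the laminin gene Lamb1 and Hdac9, 7 tested genes away. Ahr, the aryl hydrocarbon receptor gene, 9 away, was at 863 ± 320 in WT and 1714 ± 215 in p110g-/- without overlap (adjusted p = 0.0653). Across the genome 40 pairs of adjacent tested genes were called in the same direction, 29 lower and 11 higher, in 70 genes; they included the clusters of Ifit, Oas, Slfn, PYHIN and H2-Q genes, Raet1e with H60b and Raet1d, Cxcl1 with Cxcl2, Fpr1 with Fpr2, Klk9 with Klk8, and Cd14 with E230025N22Rik. The share of these 40 among all adjacent tested pairs was not computed. Strand use in the counting is not stated in the sources, so overlapping neighbours could share reads.

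**Figure D5:**
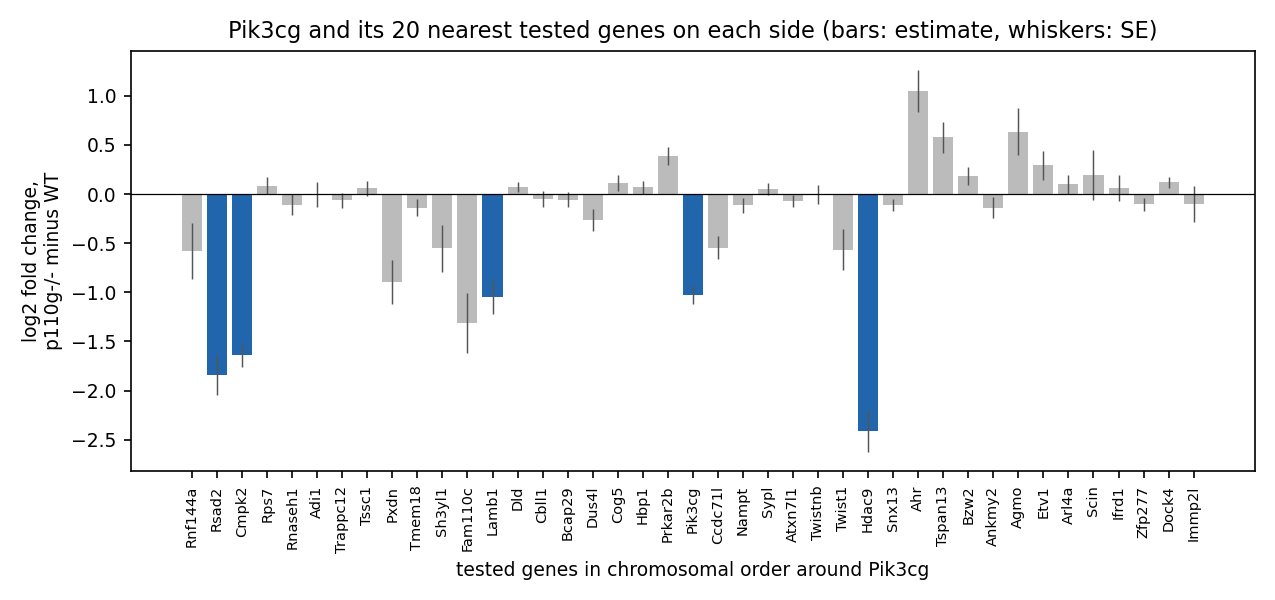
Log2 fold change, p110g-/- minus WT (bars) with its SE (whiskers), of Pik3cg and of the 20 nearest tested genes on each side in chromosomal order, blue for genes called lower. The 12 genes nearest to Pik3cg are grey, and Hdac9 is the lowest bar at −2.41.

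Large programs of macrophage metabolism and turnover were not called. In limma's test no gene passed among 29 lysosomal hydrolase and proton pump genes (median log2 fold change 0.03), and 7 had an unadjusted p under 0.05. The same held for 24 genes of glycolysis and hypoxia (median 0.07, 2 under 0.05), 21 of cholesterol synthesis (−0.10, 4), 19 matrix metalloproteinases and inhibitors (0.28, 7) and 16 heat shock genes (0.12, 5). It also held for 26 nuclear genes of oxidative phosphorylation (−0.03, 0) and 30 proliferation genes (0.13, 0). The pair medians of the proliferation genes, 0.72, 0.15, −0.06 and −0.23, had both signs. Of 25 cytosolic ribosomal protein genes Rpl27 fell, by 0.31. ND3 was the 1 mitochondrially encoded gene of 13 that rose (log2 fold change 0.65), and all 13 were above 0, with a median of 0.37.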

How the data were processed

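RNA was measured by sequencing in 14 mouse libraries, and the 8 TAM libraries, each from 1000000 sorted cells, are the subject here. The labels' protocols give RNeasy extraction and Illumina library preparation. Bowtie2, DESeq and the build mm9 were used, per the submitters' processing notes, with no versions. Neither the gene counter nor the annotation is named in the sources. The values the authors deposited are a score per gene and library, whole numbers that behave as gene counts scaled by 1 factor per library and rounded, called normalized counts here. Reads per library were estimated from the whole numbers skipped, by a procedure that was tested on simulated data, and a count of 3 reads is worth 2.5 to 5.81 normalized counts (counting error alone).

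A count model did not apply to these values. limma 3.58.1 (R 4.3.3) was fitted to log2(normalized count + 1) with limma-trend, its prior following the mean, for genes with at least 10 normalized counts in at least 4 TAM libraries, and the fit was tested on simulated data. Fold changes on this scale understate the change of low genes. Tests were two-sided with Benjamini-Hochberg adjustment, and a gene was called (rose or fell) at an adjusted p below 0.05. The library number was a block. The labels do not say what the number marks. Deviations from the group means were correlated between same-numbered libraries, at 0.847, 0.472, 0.808 and 0.702 over 12475 genes, but WT 4 correlated more with p110g-/- 3 (0.777) than with p110g-/- 4. The TAM effect minus the whole tumor effect was fitted over the 14 libraries, with the TAM number as a block and at least 3 whole tumor libraries at 10.

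Members and gene lists were chosen with earlier results of these data known. Genes were named when they were Pik3cg or its 6 nearest tested genes on each side, when called with and without the block, when among the 15 largest rises or falls with a mean of at least 100 in the higher group, or as up to 6 called members of a list. Genes outside that rule were named after their values were seen: Isg15, Usp18, Zbp1, Ddx58, Ifih1, Mb21d1, Trex1, Irf9, Stat2, Apol9a, Oas3, Cmpk2, Gbp2, Cxcl10, Fpr1, Fpr2, Cd38, Anpep, Ret, Actb, Lyz2, Ulbp1, Lamb1, Col4a1, Ahr, Klk8, E230025N22Rik, Ier2, ND3 and those of the closing observations. The alternatives were the fit without the block, other pseudocounts, filters, rescalings and variance models, and leaving out libraries. Promoter windows came from RefSeq on GRCm38.p6, matched by gene ID to 9902 of the 12475 tested genes.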

Additional observations from a re-analysis of the deposited data

Results flagged for a closer look

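The genotype effect differed between sorted macrophages and whole tumors in 104 genes with a difference above 0 and 300 below, tested by an interaction term over the 14 libraries, and in 5 and 13 without the pairing. It was below 0 in 45 members of the type I interferon list, 16 of the interferon-gamma GTPases and 16 of the MHC class I list. Among the named genes, those with a difference in this test and opposite log2 fold changes, past the test in whole tumor, were as follows. On the log2 scale the difference was −2.95 for Tnfsf10, which encodes the death ligand TRAIL, −2.67 for Ifi47, −2.31 for H2-Q6, −2.04 for H2-Q7, −1.94 for Zbp1, −1.86 for Nlrc5, −1.76 for H2-Q4, −1.73 for Cxcl10 and −1.52 for Tap1. Cxcl10 was not called in TAM.

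For 117 named genes the highest or lowest of 4 libraries was compared with the range of its group. It stood apart in 34 of 234 groups, where chance gives about 1 in 20, and 31 of the 34 were library 1, 13 in WT and 18 in p110g-/-. In WT library 1 the values were 44909 normalized counts for Slfn4 (the others at most 6123), 1415 for Ly6c2, 4450 for Plac8, 7403 for Ms4a4c, 1029 for Fpr1, 1748 for Fpr2, 12963 for Cxcl2, 73314 for Spp1, 16633 for Fcgr1, 5356 for Cd300a, 33947 for Ifitm3, 423 for Clec2i and 34 for Cd209d. In p110g-/- library 1 interferon genes stood above the other p110g-/- libraries, with 994 for Isg15 (the others at most 615), 801 for Pydc4, 482 for Cmpk2, 824 for Ifit1, 1045 for Ifit2, 912 for Ifit3, 281 for Mx2 and 2074 for Zbp1. The same library held 2481 for Plac8, 4049 for Ms4a4c, 3270 for Fpr2, 1234 for Adgrg5, 7654 for Ifitm1, 4437 for H2-Q7, 4263 for Cd300a, 1216 for Cd38, 21795 for Rgs1 and 262 for Clec2i. In p110g-/- library 2, Ret stood high at 146 and Ptgs2 low at 830, and in library 3 Ccdc71l stood low at 1455.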

How the results depend on the processing

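The counts of genes called in TAM depended on the pairing and on the libraries in the fit. Without the replicate block 9 genes were higher and 5 lower, against 126 and 186 with it, and the TAM minus whole tumor difference was above 0 in 5 and below 0 in 13 genes, against 104 and 300. A block also on the whole tumor numbers gave 53 above 0. With both libraries of 1 number left out, 24 to 298 genes were higher and 50 to 311 lower in TAM, and the difference was above 0 in 51 to 219 and below 0 in 193 to 425. With 1 library left out of the fit without the block, 3 to 33 were higher and 0 to 26 lower (33 and 7 without WT 1, and 4 higher without WT 3, WT 4, p110g-/- 2 or p110g-/- 4). With libraries 1 and 2 only, chosen after seeing the data, 3 were higher and 2 lower, with fewer samples in the fit. A constant prior gave 46 and 82, sample quality weights 370 and 382 (differences 437 and 639), and rescaling to equal totals 291 lower, with 60 differences above 0 and 487 below; that rescaling moved the median of all genes to −0.07. The cause was not tested. The other pseudocounts, filters and the median-of-ratios rescaling kept every count within 1.5 times. Of 117 named genes, none changed direction with the block. In the fit without the block, leaving out p110g-/- 1 turned the log2 fold changes of Fbn1 (0.20), Bgn (0.45), Sparc (0.25), Lamb1 (0.22), Col4a1 (0.20) and the fibroblast list median (0.25) above 0, and leaving out WT 1 turned Ulbp1 to −0.091. Depth limits the genes near 10 normalized counts, where a read is worth 0.832 to 1.94 of them.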

Other observations

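Related genes did not always move together. Ifitm3, which blocks virus entry, fell from 33947, 16210, 16496 and 16024 normalized counts in WT to 23336, 10252, 12193 and 12740 in p110g-/- (log2 fold change −0.49, adjusted p = 0.021). Its family member Ifitm1 rose, from 4279, 1358, 1868 and 1793 to 7654, 2489, 2499 and 3048 (log2 fold change 0.72, adjusted p = 0.0109). Library 1 was the highest of its genotype for both genes, and neither passed without the block. The PYHIN genes, which encode nuclear and cytosolic DNA-binding proteins, fell in 8 of 10, Mnda from 3873 ± 1757 to 1991 ± 967.

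Paired immunoglobulin-like receptors and the CD300 family, which tune myeloid activation, fell in 6 of 19. Pilra, an inhibitory member, held 15976, 12878, 11470 and 11832 in WT against 10645, 10373, 7505 and 8446 in p110g-/- TAM, with no overlap (log2 fold change −0.50, adjusted p = 0.0169), Treml2 fell by 1.31 and Cd300a by 0.48. Tmem119, known as a microglial marker in the brain, was expressed in these TAM and fell from 3440 ± 170 to 1915 ± 379 (log2 fold change −0.86, adjusted p = 0.0117, and 0.0722 without the block). Glul, glutamine synthetase, rose from 5398 ± 536 to 8045 ± 343 with no overlap (log2 fold change 0.58, adjusted p = 0.0132, and 0.0683 without the block). Cd209d, a C-type lectin, held 34, 11, 14 and 11 in WT against 122, 69, 60 and 141 in p110g-/- TAM (adjusted p = 0.0155, and 0.155 without the block). All genes and families of this section were chosen after their values were seen.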
